A study of Homo sapiens with 12 samples.

Results

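The genes described here are 9 targets of the transcription factor NRF2 (gene NFE2L2): NQO1, AKR1B10, AKR1C1, AKR1C2, AKR1C3, GCLM, TXNRD1, SRXN1 and HMOX1. They were chosen by name from a count matrix for each of 3 cell lines, and make up 9 of the 33514 gene symbols there. All 9 had UMIs (unique molecular identifiers, each counting 1 captured transcript) in every sample and passed the filter on low counts. The matrices came from single-cell RNA sequencing of 3 established head and neck squamous cell carcinoma lines, SCC1, SCC6 and SCC25, grown in culture. Cells of each line were given 100 nM cetuximab, a therapeutic antibody against the epidermal growth factor receptor, every day for 5 days, or only phosphate-buffered saline (PBS), and the PBS cells are called untreated. There were 2 replicates per line and treatment, 12 samples in 6 groups. Whether the replicates were separate cultures is not clear from the labels and methods, and if they were not, the errors and p-values below cover only the spread between libraries.

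NRF2 is held at a low level in most cells because KEAP1, an adaptor of a CUL3 ubiquitin ligase, marks it for degradation. Electrophiles and oxidants modify KEAP1, NRF2 then accumulates, pairs with small MAF proteins and activates genes that carry antioxidant response elements. BACH1 competes for the same elements and represses HMOX1 in particular. The targets supply reductive and detoxifying enzymes. In squamous carcinomas of the head and neck the pathway is known for being switched on by mutations of NFE2L2, KEAP1 or CUL3 in some tumours. NQO1 reduces quinones, AKR1B10 and AKR1C1 to AKR1C3 are aldo-keto reductases acting on aldehydes, ketones, steroids and prostaglandins, GCLM is the modifier subunit of the enzyme that begins glutathione synthesis, TXNRD1 reduces thioredoxin, SRXN1 repairs overoxidised peroxiredoxins, and HMOX1 breaks down haem.

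On GRCh38.p14 with RefSeq annotation, all 9 are protein-coding genes. NQO1 lies at chr16:69709401-69726560, AKR1B10 at chr7:134527567-134541412, GCLM at chr1:93885199-93909430, TXNRD1 at chr12:104215779-104350307, SRXN1 at chr20:646615-653200 and HMOX1 at chr22:35381096-35394207. AKR1C1 (chr10:4963415-4983283), AKR1C2 (chr10:4987775-5018000) and AKR1C3 (chr10:5048781-5107686) are neighbours on chromosome 10. RefSeq promoter windows were at hand for 7 of the 9 genes (9 start sites). The letters TGACNNNGC, the core by which an antioxidant response element is recognised, were searched on both strands of the 250 bases before each start. They were found in 3 of these 9 windows, and in 10.9% of all 35116 windows of that length. None of the 3 overlapped the AP-1 letters TGACTCA or TGAGTCA. The stretches of 30 bases are printed because they are where the response element letters occur in members, with the match in capitals on whichever strand it was found, for GCLM at chr1:93909445-93909474 (minus strand), and for 2 starts of TXNRD1 at chr12:104215670-104215699 and chr12:104286920-104286949 (plus strand).
GCLM: tacgatttctGCTTAGTCAttgtcttccag
TXNRD1, upstream start: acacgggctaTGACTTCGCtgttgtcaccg
TXNRD1, downstream start: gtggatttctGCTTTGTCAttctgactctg
The first base of the match lay 34 bases before the start in GCLM and 99 and 102 bases before it in TXNRD1. A match of letters is a description of the sequence, and elements farther away were not searched.

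The AKR1C genes are closely related copies, and how reads that match more than 1 of them were counted is not given in the sources used here. Over the 250 bases before the start, AKR1C2 was 96.5% identical to AKR1C1 (245 of 254 aligned positions), and the 2 starts of AKR1C3 were 72.7% and 70.6% identical to it. The stretch around their CCAAT box is printed to show how alike the copies are, with capitals for bases that differ from AKR1C1, at chr10:4963328-4963357 (plus), chr10:5003919-5003948 (minus), chr10:5048698-5048727 (plus) and chr10:5094318-5094347 (plus).
AKR1C1: ctcacatgccattggttaaccagcagacag
AKR1C2: ctcacatgccattggttaaccagcagacag
AKR1C3, upstream start: TtTacatgcTattggttaaccaTTagGcag
AKR1C3, downstream start: cCTacatgccattggttaaccaTcagTcag
AKR1C2 does not differ from AKR1C1 here, while AKR1C3 differs at 6 and at 4 bases. Transcripts were not compared, so the level of any single AKR1C gene is uncertain to an unknown degree, and the sum of the 3 was tested beside each.

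The samples held 961 to 2854 cells and 57057402 to 112170073 UMIs, with medians of 24078.5 to 54864 UMIs per cell. All 8 squamous carcinoma markers were detected in every group, but KRT5 and KRT14, keratins of basal squamous cells, reached only 4.57 and 2.58 CPM (defined below) in the SCC6 samples. The 10 markers of blood, liver and endothelium did not exceed 0.375 CPM in any sample. Liver markers were read because liver expresses aldo-keto reductases, as gut does, and no gut marker was among them. Levels below are CPM, the UMIs of a gene scaled to 1000000 UMIs of its library, as mean ± SD (n = 2). CPM carry no scaling for composition (TMM). The same holds for the ratios, overlaps and directions read from CPM, also those over all genes. The TMM factors of the libraries, by which CPM would be divided, were 0.835 to 1.14. Changes are log2 fold changes ± SE from edgeR on UMI counts summed per sample, with TMM scaling. The SE was derived from the test, as the size of the log2 fold change divided by the square root of the F statistic. It is therefore no measure of spread separate from the p-value. P-values are adjusted by the Benjamini-Hochberg method over 17897 genes with a threshold of 0.05.

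Among untreated cells, NQO1 had its highest level in SCC1. Its level was 542.9 and 780.1 CPM in the PBS replicates of SCC1, 155 and 304 CPM in SCC6 and 175 and 468 CPM in SCC25 (means 662 ± 168, 229 ± 105 and 321 ± 207). In CPM both SCC1 libraries were above all 4 libraries of the other lines, while SCC6 and SCC25 overlapped. After TMM scaling SCC1 and SCC25 overlap too. The factors were 1.14 for PBS replicate 1 of SCC1 and 0.917 for PBS replicate 2 of SCC25, which reverses the order of these libraries. Without pairing of replicates NQO1 did not pass between any of the lines (edgeR adjusted p = 0.116 for SCC6 minus SCC1, 0.267 for SCC25 minus SCC1 and 0.623 for SCC25 minus SCC6). In all untreated comparisons the replicate block was 1 term shared by the lines. The labels do not say whether a replicate number means the same in each line. With this block, the log2 difference of NQO1 in SCC6 minus SCC1 was -1.25 ± 0.24 (edgeR adjusted p = 0.00153). For SCC25 minus SCC1 that fit gave -0.97 ± 0.24 (edgeR adjusted p = 0.00635).

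In CPM, AKR1C1 and AKR1C2 were highest in untreated SCC25 without overlap, for AKR1C2 only as long as TMM scaling was left out. AKR1C3 and AKR1B10 overlapped between SCC25 and SCC1. AKR1C1 stood at 17.9 and 23.2 CPM in SCC1, 8.59 and 14.2 CPM in SCC6 and 52.0 and 146 CPM in SCC25. Neither SCC25 library overlapped the other lines, and the fitted difference was 2.48 ± 0.50 against SCC1 (edgeR adjusted p = 0.00299) and 3.02 ± 0.51 against SCC6 (edgeR adjusted p = 0.00112). AKR1C1 in SCC6 and SCC1 did not differ beyond the spread (edgeR adjusted p = 0.4).

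AKR1C2, the closest copy, stood at 24.8 and 30.5 CPM in SCC1, 29.6 and 44.1 CPM in SCC6 and 46.0 and 162 CPM in SCC25. In CPM SCC25 was above both lines without overlap, though its 2 libraries differed widely. After TMM scaling SCC25 and SCC6 overlap. The factors were 0.992 for PBS replicate 1 of SCC25 and 0.894 for PBS replicate 2 of SCC6, which reverses the order of these libraries. The difference of AKR1C2 from SCC1 was 2.13 ± 0.66 (edgeR adjusted p = 0.0255), and the call was lost without PBS replicate 1 or 2 of SCC1 or PBS replicate 2 of SCC25 (adjusted p = 0.136, 0.0818 and 0.3). Against SCC6 it was 1.40 ± 0.64 (edgeR adjusted p = 0.108, 0.0495 with the replicate block, and 0.0238 without PBS replicate 1 of SCC25).

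AKR1C3, which also acts on steroids and prostaglandins, stood at 63.4 and 64.0 CPM in SCC1, 13.5 and 29.6 CPM in SCC6 and 39.0 and 144 CPM in SCC25. SCC6 was lowest without overlap, and SCC1 fell between the libraries of SCC25. AKR1C3 was higher in SCC25 than in SCC6 by 2.00 ± 0.65 (edgeR adjusted p = 0.0317), a call lost without PBS replicate 1 of SCC6 (adjusted p = 0.187) or PBS replicate 2 of SCC25 (adjusted p = 0.405). AKR1C1-3 summed was higher in SCC25 than in SCC1 by 1.62 ± 0.58 (edgeR adjusted p = 0.0472) and than in SCC6 by 1.98 ± 0.59 (edgeR adjusted p = 0.0213). For AKR1C3 in SCC6 minus SCC1 the difference was -1.25 ± 0.64 (edgeR adjusted p = 0.146), and with the replicate block -1.38 ± 0.39 (edgeR adjusted p = 0.0131).

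AKR1B10, a reductase of retinal and lipid aldehydes, was scarce. It had 1.98 and 9.04 CPM in SCC1, 0.568 and 1.20 CPM in SCC6 and 3.06 and 10.1 CPM in SCC25. SCC6 was below the other lines without overlap. AKR1B10 was higher in SCC25 than in SCC6 by 2.80 ± 0.93 (edgeR adjusted p = 0.0341), but not without PBS replicate 1 or 2 of SCC6 or PBS replicate 2 of SCC25 (adjusted p = 0.181, 0.0806 and 0.234). For AKR1B10 in SCC6 minus SCC1 it was -2.37 ± 0.92 (edgeR adjusted p = 0.0622). That difference passed with the replicate block (0.000656), with DESeq2 (0.014) and without PBS replicate 1 of SCC1 or any of the 4 SCC25 libraries (0.029 to 0.0482).

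GCLM and TXNRD1, from the glutathione and the thioredoxin branch, ordered the lines in opposite ways. GCLM stood at 44.4 and 46.3 CPM in SCC1, 54.1 and 74.0 CPM in SCC6 and 200.1 and 272 CPM in SCC25, with no overlap between lines. GCLM was higher in SCC25 than in SCC1 by 2.58 ± 0.31 (edgeR adjusted p = 0.000151) and than in SCC6 by 1.75 ± 0.30 (edgeR adjusted p = 0.00132), and both calls stood whichever library was left out, as did those of AKR1C1 in SCC25. In SCC6 it was 0.82 ± 0.30 above SCC1 (edgeR adjusted p = 0.0487), a call lost without composition scaling and without any of 8 libraries: both PBS and both cetuximab libraries of SCC1, both PBS libraries of SCC6 and both cetuximab libraries of SCC25 (adjusted p = 0.0542 to 0.216).

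TXNRD1 stood at 248 and 176 CPM in SCC1, 137 and 87.6 CPM in SCC6 and 60.3 and 48.4 CPM in SCC25, again without overlap. TXNRD1 was lower in SCC25 than in SCC1, with a log2 difference of -1.76 ± 0.28 (edgeR adjusted p = 0.000735), and lower than in SCC6, at -1.21 ± 0.27 (edgeR adjusted p = 0.00571). The second of these calls was lost without PBS replicate 1 of SCC6 (adjusted p = 0.0517). SCC6 and SCC1 did not pass for TXNRD1 (-0.56 ± 0.27, edgeR adjusted p = 0.128, but 0.0299 without PBS replicate 1 of SCC6). SRXN1, the sulfiredoxin, was scarce, at 0.827 to 1.53 CPM in all 6 untreated libraries, and no difference between lines was detectable at this depth (edgeR adjusted p = 0.537 to 0.787).

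HMOX1, the haem oxygenase, was highest in untreated SCC6. It stood at 11.1 and 13.8 CPM in SCC1, 29.6 and 22.8 CPM in SCC6 and 3.93 and 5.46 CPM in SCC25, with no overlap between lines. HMOX1 in SCC6 was 1.40 ± 0.41 above SCC1 (edgeR adjusted p = 0.0202), a call lost without PBS replicate 1 or 2 of SCC1 or PBS replicate 1 of SCC6 (adjusted p = 0.0534 to 0.133). SCC25 minus SCC6 was -2.62 ± 0.43 (edgeR adjusted p = 0.000946). SCC25 minus SCC1 was -1.21 ± 0.41 (edgeR adjusted p = 0.0377), and this HMOX1 call was lost without any of the 4 SCC1 libraries or either PBS library of SCC25 (adjusted p = 0.0515 to 0.186), and without the 5% of cells with most UMIs (adjusted p = 0.0611).

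**Figure D1:**
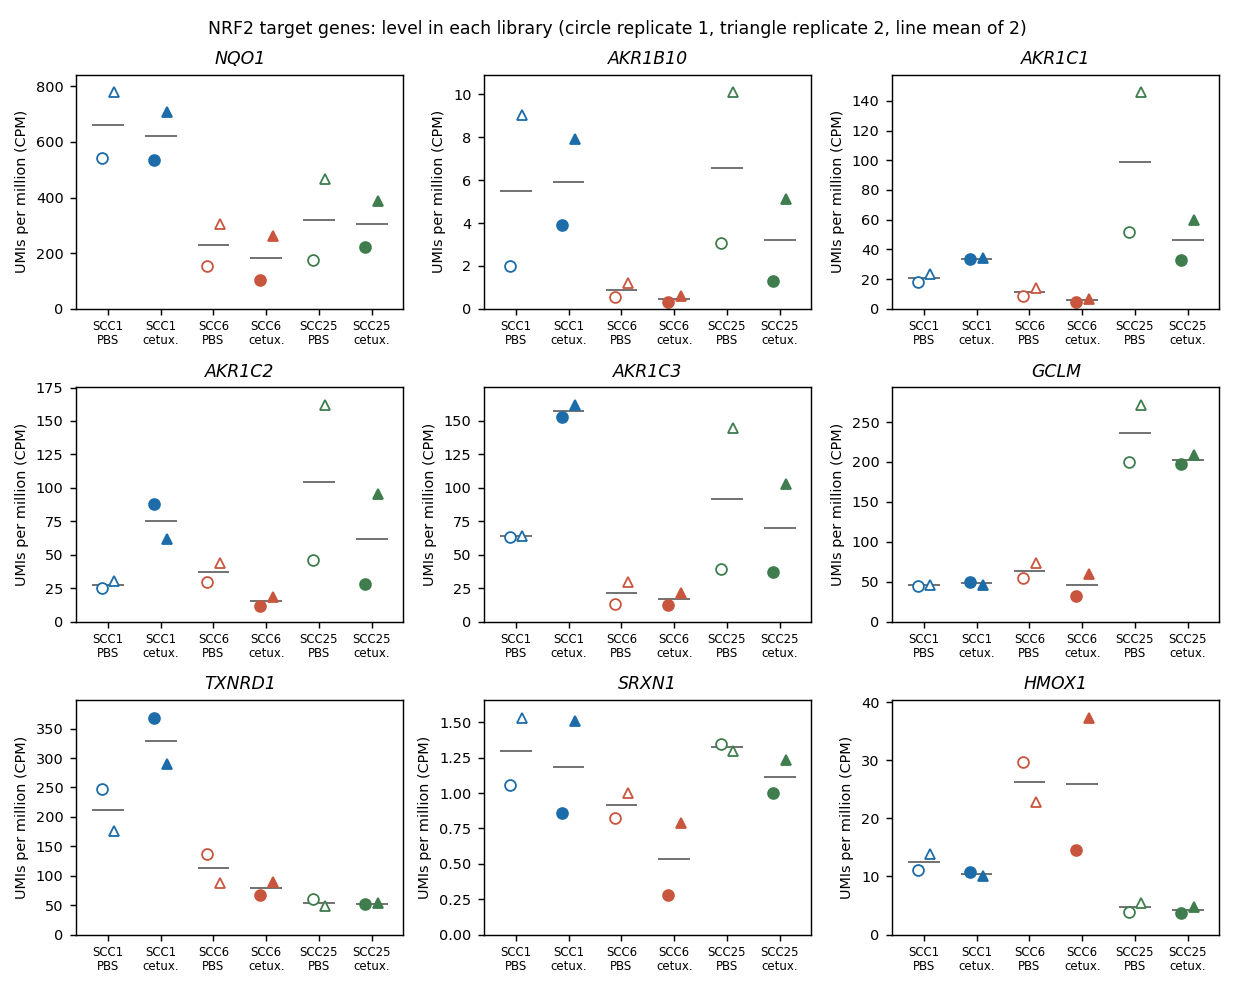
Level of each of the 9 NRF2 target genes in CPM (linear axis from 0, a scale of its own for each gene) in the 12 libraries. Open symbols are PBS and filled symbols cetuximab, circles replicate 1 and triangles replicate 2, and the line is the mean of 2. Triangles lie above circles in all 6 groups for NQO1, AKR1B10, AKR1C1 and AKR1C3.

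In total, 2 of the 9 genes differed between untreated SCC6 and SCC1 (GCLM and HMOX1, both higher in SCC6), beside 40.2% of all genes tested. For SCC25 against SCC1 it was 5 of 9 (AKR1C1, AKR1C2 and GCLM higher, TXNRD1 and HMOX1 lower), beside 40.8%, and for SCC25 against SCC6 6 of 9 (AKR1B10, AKR1C1, AKR1C3 and GCLM higher, TXNRD1 and HMOX1 lower), beside 40.9%. With the replicate block the counts were 5, 6 and 7 of 9, beside 53.8%, 54.7% and 54.4% of all genes. The shares are read against lines that differ at a large part of their genes. The 9 targets did not move as a unit between lines, since GCLM, AKR1C1 and AKR1C2 were highest in SCC25 while TXNRD1 and HMOX1 were lowest there.

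Within a line and treatment, several of the genes differed by replicate number. NQO1, AKR1B10, AKR1C1 and AKR1C3 were higher in replicate 2 than in replicate 1 in 6 of 6 groups, 4 of 9 genes, whereas 12.4% of all genes were higher and 14.8% lower in all 6 groups. The ratio of replicate 2 to replicate 1 ranged from 1.32 to 2.68 for NQO1 and from 1.94 to 4.56 for AKR1B10. As a term in a fit with the 6 group means, added after the data had been seen, replicate 2 exceeded replicate 1 by 0.95 ± 0.14 for NQO1 (edgeR adjusted p = 0.00121), 1.58 ± 0.20 for AKR1B10 (0.00076), 0.69 ± 0.17 for AKR1C1 (0.013) and 0.93 ± 0.23 for AKR1C3 (0.014). AKR1C2 was at 0.81 ± 0.28 (edgeR adjusted p = 0.0529).

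For the other members the replicate term did not pass. GCLM and SRXN1 were higher in replicate 2 in 5 of 6 groups, HMOX1 in 4 and TXNRD1 in 2, with TXNRD1 lower in the other 4 (edgeR adjusted p = 0.063 to 0.338). The 4 calls compare with 26.6% of all genes called between the replicate numbers, 2477 higher and 2285 lower. Of 40 other NRF2 pathway genes with a value, 13 were higher in replicate 2, among them EPHX1, microsomal epoxide hydrolase (1.02), and PIR, pirin (0.76), and 4 were lower, among them the repressor BACH1 (-1.29). The total of UMIs and the median mitochondrial share were also higher in replicate 2 in 6 of 6 groups, by ratios of 1.02 to 1.47 and 1.14 to 1.62. The labels do not say what the numbers stand for, and the part of these library measures in the difference was not tested. For the cetuximab comparisons, fits with and without the replicate number as a block are therefore given side by side.

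**Figure D2:**
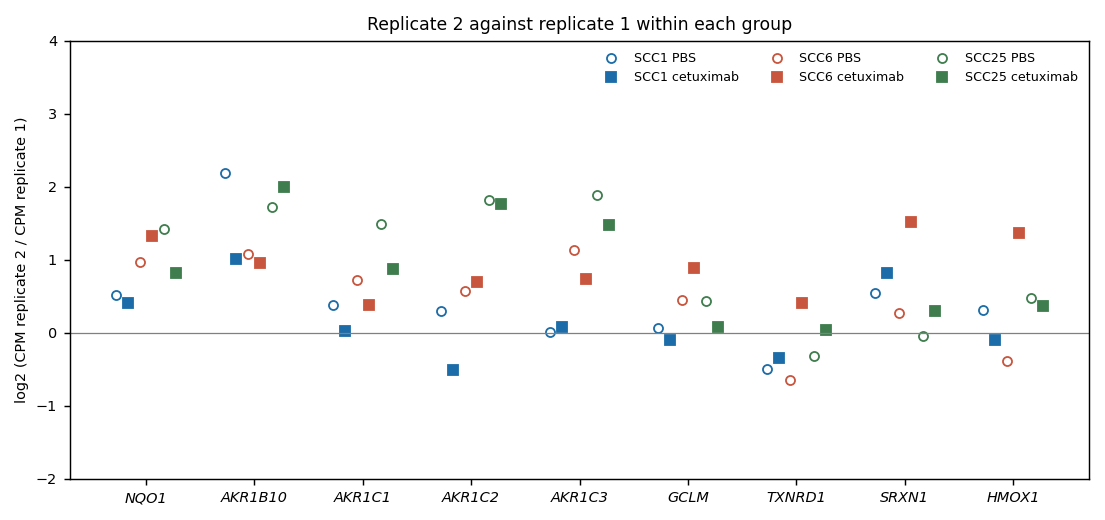
Log2 ratio of CPM in replicate 2 to CPM in replicate 1 for each gene in each of the 6 groups; the line at 0 marks equal levels. All 6 points lie above 0 for NQO1, AKR1B10, AKR1C1 and AKR1C3, while those of TXNRD1 and HMOX1 lie on both sides.

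In SCC1, AKR1C2 and AKR1C3 rose with cetuximab in the fit with replicates paired. AKR1C3 stood at 63.4 and 64.0 CPM under PBS and at 153 and 162 CPM under cetuximab (63.7 ± 0.429 and 158 ± 6.23). The 2 groups of AKR1C3 were well apart, and the ratio was 2.42 in replicate 1 and 2.53 in replicate 2. The log2 change of AKR1C3 was 1.26 ± 0.15 with the replicate block (edgeR adjusted p = 0.00793) and 1.26 ± 0.63 without it (edgeR adjusted p = 0.643). AKR1C2 stood at 24.8 and 30.5 CPM under PBS and at 88.2 and 61.9 CPM under cetuximab. Its groups did not overlap either, with ratios of 3.55 and 2.03. The change of AKR1C2 was 1.37 ± 0.21 with the block (edgeR adjusted p = 0.0152) and 1.38 ± 0.64 without it (edgeR adjusted p = 0.597). Both calls were lost when the pair of replicate 1 of SCC1 was left out (adjusted p = 0.247 for AKR1C2 and 0.144 for AKR1C3), and with a single replicate term shared by the lines (adjusted p = 0.153 and 0.148).

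AKR1C1 in SCC1 stood at 17.9 and 23.2 CPM under PBS and at 33.4 and 34.0 CPM under cetuximab. Its 2 cetuximab libraries were alike and above both PBS libraries, and the change of AKR1C1 was 0.68 ± 0.19 with the block (edgeR adjusted p = 0.0924). AKR1C1-3 summed changed by 1.20 ± 0.15 with the block (edgeR adjusted p = 0.0075) and by 1.20 ± 0.57 without it (edgeR adjusted p = 0.613). A division of shared reads among the copies would leave this sum as it is. If such reads were dropped instead, the sum would be affected too, and which was done is not known.

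The remaining members of SCC1 did not pass in either fit. TXNRD1 stood at 248 and 176 CPM under PBS and at 369 and 289 CPM under cetuximab, above PBS without overlap and by ratios of 1.49 and 1.65. The change of TXNRD1 was 0.60 ± 0.24 with the block (edgeR adjusted p = 0.208), and it passed there without either replicate pair of SCC6 (adjusted p = 0.0318 and 0.0305). NQO1 was at 536.8 and 709 CPM under cetuximab, each close to the PBS library of its own replicate number (log2 change -0.13 ± 0.18 with the block, edgeR adjusted p = 0.779). GCLM was at 50.1 and 46.6 CPM, AKR1B10 at 3.91 and 7.90 CPM, SRXN1 at 0.859 and 1.51 CPM and HMOX1 at 10.7 and 10.0 CPM under cetuximab. Of these only GCLM, just above its PBS libraries, and HMOX1, below them, did not overlap with PBS in CPM. After TMM scaling the groups of GCLM overlap.

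Without pairing, edgeR called 0 of 9 genes in SCC1, beside 0.0168% of all genes, and DESeq2 also called 0. At an unadjusted p under 0.05 edgeR had 0 of the 9, beside 1570 of all 17897 genes. DESeq2 had 3 of the 9, beside 1714 of 17897. With the replicate block 2 of 9 passed, both higher, beside 4.45% of all genes in either direction and 2.46% higher. In CPM, cetuximab was above PBS without overlap for 5 of 9 genes (AKR1C1, AKR1C2, AKR1C3, GCLM and TXNRD1), beside 24.7% of all genes. GCLM does not hold after TMM scaling, with factors of 1.14 and 1.04 under PBS and 1.14 and 1.11 under cetuximab. The share of all genes was not counted on that scale. The median change of the 9 was 0.04 without pairing, beside 0.00 over all genes, with 6 above 0 and 3 below, and 0.29 with the block, beside 0.00 over all genes.

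In SCC6, AKR1C1 and AKR1C2 fell with cetuximab in the fit with replicates paired. AKR1C2 stood at 29.6 and 44.1 CPM under PBS and at 11.5 and 18.7 CPM under cetuximab, lower without overlap and with ratios of 0.390 and 0.424. The change of AKR1C2 was -1.53 ± 0.21 with the replicate block (edgeR adjusted p = 0.00312) and -1.5 ± 0.65 without it (edgeR adjusted p = 0.23). AKR1C1 stood at 8.59 and 14.2 CPM under PBS and at 4.91 and 6.41 CPM under cetuximab, again without overlap. The change of AKR1C1 was -1.21 ± 0.20 with the block (edgeR adjusted p = 0.00608) and -1.22 ± 0.48 without it (edgeR adjusted p = 0.194). These calls of AKR1C1 and AKR1C2 stood when any replicate pair was left out (adjusted p = 0.00465 to 0.0487 and 0.000645 to 0.0453). With the term shared by the lines AKR1C1 passed (adjusted p = 0.0258) and AKR1C2 did not (adjusted p = 0.0554).

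AKR1C3 in SCC6 stood at 13.5 and 29.6 CPM under PBS and at 12.8 and 21.3 CPM under cetuximab. The groups of AKR1C3 overlapped, and the change with the block was -0.51 ± 0.15 (edgeR adjusted p = 0.0501, and 0.0387 or 0.0384 without a pair of SCC25). AKR1C1-3 summed changed by -1.10 ± 0.15 with the block (edgeR adjusted p = 0.00297) and by -1.10 ± 0.57 without it (edgeR adjusted p = 0.322). AKR1B10 stood at 0.568 and 1.20 CPM under PBS and at 0.316 and 0.611 CPM under cetuximab. It was lower within each replicate number, while the groups overlapped in CPM but not after TMM scaling. The change of AKR1B10 was -1.14 ± 0.34 with the block (edgeR adjusted p = 0.0482).

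GCLM, AKR1B10 and NQO1 also fell in SCC6 in the paired fit, closer to the threshold. GCLM stood at 54.1 and 74.0 CPM under PBS and at 32.2 and 59.6 CPM under cetuximab. NQO1 stood at 155 and 304 CPM under PBS and at 104 and 262 CPM under cetuximab. For both genes the groups overlapped in CPM and each cetuximab library was below the PBS library of its number. After TMM scaling the groups of GCLM no longer overlap, while those of NQO1 do. The change with the block was -0.76 ± 0.18 for GCLM (edgeR adjusted p = 0.021) and -0.62 ± 0.18 for NQO1 (edgeR adjusted p = 0.0476), and without it -0.70 ± 0.30 (0.226) and -0.53 ± 0.57 (0.655). Without the pair of replicate 1 of SCC6 the calls of GCLM, NQO1 and AKR1B10 were lost (adjusted p = 0.268, 0.449 and 0.232). The call of NQO1 was also lost without either pair of SCC1 (adjusted p = 0.058 and 0.0621), and that of AKR1B10 without replicate 2 of SCC6 or either pair of SCC25 (adjusted p = 0.175, 0.0689 and 0.068). Without composition scaling NQO1 and AKR1B10 did not pass either (adjusted p = 0.104 and 0.0755).

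TXNRD1 in SCC6 stood at 137 and 87.6 CPM under PBS and at 67.6 and 89.5 CPM under cetuximab, in CPM lower in replicate 1 only. After TMM scaling it was lower in both (-0.73 ± 0.24 with the block, edgeR adjusted p = 0.0673). SRXN1 went from 0.827 and 1.00 CPM to 0.276 and 0.789 CPM, below PBS without overlap (-1.11 ± 0.35 with the block, edgeR adjusted p = 0.0565). HMOX1 was at 29.6 and 22.8 CPM under PBS and at 14.5 and 37.3 CPM under cetuximab. HMOX1 thus was lower in replicate 1 and higher in replicate 2, with a change of -0.38 that did not pass (edgeR adjusted p = 0.494). Leaving out the pair of replicate 2 of SCC6 leaves 1 library per treatment there and takes the spread from the other lines. In the remaining replicate 1 the CPM ratios of cetuximab to PBS were 0.492 for TXNRD1, 0.334 for SRXN1 and 0.489 for HMOX1. In the replicate left out HMOX1 was higher with cetuximab (ratio 1.64). TXNRD1 there had a CPM ratio of 1.02 and was lower after TMM scaling.

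Without pairing, edgeR called 0 of the 9 genes in SCC6, beside 3.81% of all genes, and DESeq2 called 0. At an unadjusted p under 0.05 edgeR had 4 of the 9, beside 3561 of all 17897 genes. DESeq2 had 4 of the 9, beside 3742 of 17897. With the replicate block 5 of 9 passed, all lower, beside 20.1% of all genes in either direction and 10.1% lower. In CPM, cetuximab was below PBS without overlap for 3 of 9 genes (AKR1C1, AKR1C2 and SRXN1), beside 11.6% of all genes. It was lower in both replicates for 7 of 9, beside 21.3%, while 52.2% of all genes were higher in both. The TMM factors were 0.835 and 0.894 under PBS and 1.02 and 1.00 under cetuximab. After that scaling GCLM, AKR1B10 and TXNRD1 are also below PBS without overlap. The share of all genes was not counted on that scale. The median change of the 9 without pairing was -0.76, beside 0 over all genes, and all 9 estimates were below 0. Composition scaling counts for more here than elsewhere: without it the median change of all genes in SCC6 was 0.23, and all 9 estimates were still below 0, the smallest being HMOX1 at -0.02. The split of calls over all genes moved from 449 higher and 233 lower to 718 and 138 without pairing, and from 1779 and 1810 to 3132 and 890 with the block.

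Marker sums and depth also varied among the SCC6 libraries. The sum of the 8 squamous markers was 1004 to 1105 CPM under PBS and 2414 to 3154 CPM under cetuximab. KRT5, KRT14, KRT17, TP63 and SFN were higher in both replicates, KRT6A and EPCAM lower, and CDH1 mixed. In SCC1 this sum was 6727 to 6915 CPM under PBS and 11096 to 11946 CPM under cetuximab. In SCC25 it was 7047 to 11497 and 8968 to 13914 CPM. The sum of 4 fibroblast markers, all detected in every group, was 0.887 to 2.60 CPM under PBS and 20.4 to 24.8 CPM under cetuximab in SCC6. The median number of UMIs per cell was 24078.5 and 50156 in the cetuximab libraries, on both sides of the 32438 and 38691.5 under PBS. The part of these in the changes of the 9 genes was not tested.

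In SCC25 no gene of the 9 passed in either fit. AKR1C1 stood at 52.0 and 146 CPM under PBS and at 32.9 and 60.1 CPM under cetuximab. Each cetuximab library was below the PBS library of its number while the groups overlapped, and the change of AKR1C1 was -1.0 ± 0.19 with the block (edgeR adjusted p = 0.0594) and -1.15 ± 0.48 without it (edgeR adjusted p = 0.804). Without composition scaling it passed with the block (-0.97, adjusted p = 0.0398), as it did without either pair of SCC6 (adjusted p = 0.048 and 0.045). AKR1C2 stood at 46.0 and 162 CPM under PBS and at 27.9 and 95.2 CPM under cetuximab, with ratios of 0.608 and 0.587. Those 2 ratios of AKR1C2 were alike although the libraries differed, and the change with the block was -0.77 ± 0.20 (edgeR adjusted p = 0.136).

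AKR1C3 in SCC25 stood at 39.0 and 144 CPM under PBS and at 36.9 and 103 CPM under cetuximab (-0.32 with the block, edgeR adjusted p = 0.376). AKR1C1-3 summed changed by -0.68 ± 0.15 with the block (edgeR adjusted p = 0.0834). AKR1B10 stood at 3.06 and 10.1 CPM under PBS and at 1.28 and 5.12 CPM under cetuximab. AKR1B10 was lower within each number, with a change of -1.14 ± 0.28 with the block (edgeR adjusted p = 0.115), and passed without the pair of replicate 1 of SCC1 (adjusted p = 0.0408).

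The other genes of SCC25 stayed closer to PBS. NQO1 was at 175 and 468 CPM under PBS and at 221 and 389 CPM under cetuximab, higher in one replicate and lower in the other. GCLM was at 197 and 209 CPM, TXNRD1 at 51.4 and 53.0 CPM, SRXN1 at 0.999 and 1.23 CPM and HMOX1 at 3.69 and 4.77 CPM under cetuximab. Of these only SRXN1 was below its PBS libraries without overlap. With the block the changes of NQO1, GCLM, TXNRD1, SRXN1 and HMOX1 lay between -0.28 and 0.01 (edgeR adjusted p = 0.581 to 1).

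Without pairing, edgeR called 0 of the 9 genes in SCC25, beside 0.0% of all genes, and DESeq2 called 0. At an unadjusted p under 0.05 edgeR had 1 of the 9 (AKR1C1), beside 1041 of all 17897 genes. DESeq2 had 1 of the 9, beside 1099 of 17897. With the block it was 0 of 9, beside 0.978% of all genes. At an unadjusted p under 0.05 that edgeR fit had 3 of the 9, beside 2720 of 17897. Cetuximab was below PBS without overlap for 1 of 9, beside 12.9% of all genes, and lower in both replicates for 7 of 9, beside 28.0%. The median change of the 9 was -0.27 without pairing, beside -0.01 over all genes. The sum of the fibroblast markers was 7.50 to 8.59 CPM under PBS and 17.4 to 18.2 CPM under cetuximab in SCC1, and 7.85 to 8.98 and 16.9 to 19.4 CPM in SCC25, and its part was not tested.

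**Figure D3:**
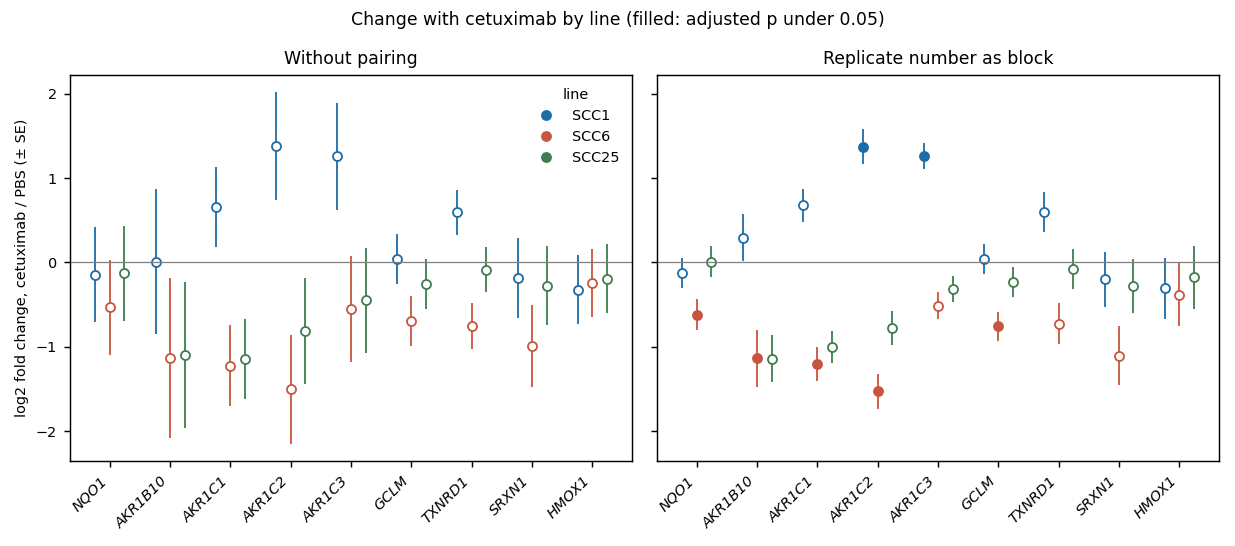
Log2 fold change with cetuximab (± SE, edgeR, TMM-scaled) of the 9 genes in SCC1, SCC6 and SCC25, without pairing on the left and with the replicate number as a block on the right. Filled symbols have an adjusted p under 0.05: there are none on the left, and on the right AKR1C2 and AKR1C3 in SCC1 and NQO1, AKR1B10, AKR1C1, AKR1C2 and GCLM in SCC6.

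Whether the change differed between the lines was tested as the interaction of line and treatment. With the replicate block it passed for the 3 AKR1C genes: AKR1C1 (edgeR adjusted p = 0.0312), AKR1C2 (0.0191) and AKR1C3 (0.0227), beside 1.29% of all genes. AKR1C2 changed by 1.37 in SCC1, by -1.53 in SCC6 and by -0.77 in SCC25, and AKR1C1 by 0.68, -1.21 and -1.0. AKR1C3 changed by 1.26, -0.51 and -0.32. AKR1C1-3 summed passed as well (edgeR adjusted p = 0.0116). Leaving out any replicate pair kept the call of AKR1C2 (adjusted p = 0.00802 to 0.0391). That of AKR1C1 was lost without replicate 1 or 2 of SCC1 or replicate 1 of SCC6 (adjusted p = 0.104, 0.0545 and 0.0645) and that of AKR1C3 without replicate 1 or 2 of SCC1 (adjusted p = 0.0664 and 0.0649). With 1 replicate term shared by the lines none of the AKR1C genes passed (AKR1C1 at adjusted p = 0.113, AKR1C2 at 0.141 and AKR1C3 at 0.252).

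Without pairing, edgeR called the interaction for 0 of 9 genes, beside 0.0% of all genes, and DESeq2 called 0. At an unadjusted p under 0.05 edgeR had 3 of the 9, beside 1318 of all 17897 genes. DESeq2 had 3 of the 9, beside 1574 of 17897. For NQO1, GCLM, TXNRD1, AKR1B10, SRXN1 and HMOX1 the interaction did not pass with the block (edgeR adjusted p = 0.154 to 0.972), so a difference between lines was not shown for them.

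Averaged over the lines, the change with cetuximab passed for AKR1C1 (-0.51 ± 0.11, edgeR adjusted p = 0.0153) and AKR1B10 (-0.66 ± 0.17, edgeR adjusted p = 0.0293) with the block, 2 of 9 beside 21.2% of all genes. For AKR1C1 the mean covers 1 line with a positive and 2 lines with a negative estimate. The call of AKR1C1 was lost without replicate 2 of SCC1 (adjusted p = 0.0629), and that of AKR1B10 without any pair but replicate 1 of SCC1 (adjusted p = 0.0612 to 0.115). Without pairing, edgeR called 0 of 9, beside 3.86% of all genes, and DESeq2 called 0. At an unadjusted p under 0.05 edgeR had 0 of the 9, beside 3575 of all 17897 genes. DESeq2 had 1 of the 9, beside 3867 of 17897. Without composition scaling the split of calls over all genes moved from 488 higher and 203 lower to 672 and 118 without pairing, and from 1886 and 1911 to 2925 and 1105 with the block.

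The same genes were read cell by cell after each cell had been thinned to 15000 UMIs, so that depth was equal. The 7 blood and liver markers, which these cells should lack, gave a UMI in at most 0.200% of cells of any sample. NQO1 was close to universal in SCC1, with a UMI in 95.6% and 98.8% of cells under PBS and 95.1% and 98.7% under cetuximab. In SCC6 the share was 79.1% and 94.9% under PBS and 63.0% and 89.4% under cetuximab, and in SCC25 80.6% and 99.0% under PBS and 85.8% and 95.2% under cetuximab. Replicate 2 was again higher in all 6 groups. Before thinning, the share of cells with NQO1 was 73.3% to 99.9% over the 12 samples.

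AKR1C2 was detected in a minority of SCC1 and SCC6 cells. Its share was 13.9% and 18.3% under PBS and 24.4% and 28.0% under cetuximab in SCC1, and 20.3% and 28.3% under PBS and 9.65% and 12.7% under cetuximab in SCC6. In SCC25 it was 37.3% and 75.3% under PBS and 25.7% and 52.7% under cetuximab. The shares therefore moved in the same direction as the CPM in each line. Before thinning they were 29.0% to 49.4% in SCC1, 13.9% to 44.7% in SCC6 and 48.6% to 92.2% in SCC25.

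AKR1C1 was found in 14.9% and 17.6% of SCC1 cells under PBS and 21.1% and 27.4% under cetuximab, in 10.3% and 13.3% and then 5.44% and 5.37% of SCC6 cells, and in 39.5% and 65.7% and then 27.9% and 38.6% of SCC25 cells. AKR1C3 was found in 41.0% and 43.4% of SCC1 cells under PBS and 49.7% and 65.0% under cetuximab. It was found in 14.4% and 24.4% and then 11.8% and 16.8% of SCC6 cells, and in 35.0% and 78.0% and then 35.2% and 65.1% of SCC25 cells. Between treatments, AKR1C1 and AKR1C3 did not overlap in SCC1, and AKR1C1 did not overlap in SCC6 or SCC25. Before thinning the share was 8.20% to 84.8% for AKR1C1 and 18.5% to 93.6% for AKR1C3.

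A few cells carried much of the AKR1C2 signal in SCC1. In SCC1, cells with 10 or more AKR1C2 UMIs numbered 7 of 1215 and 14 of 1640 under PBS and 29 of 938 and 23 of 1347 under cetuximab. They held 28.3% and 29.9% of the AKR1C2 UMIs under PBS and 55.1% and 27.4% under cetuximab. The 10% of cells with most AKR1C2 held 71.9% to 88.6% of its UMIs in SCC1, while the corresponding 10% for NQO1 held 21.9% to 28.3%. This share depends on the level, and AKR1C2 had a mean of 0.340 to 1.23 UMIs per cell, NQO1 6.99 to 11.1. The scarce AKR1C1 reached 64.0% to 80.5% in SCC1, and AKR1C2 itself 70.4% to 100% in SCC6. The ratio of variance to mean of AKR1C2 was 7.25 and 8.95 under PBS and 17.3 and 6.16 under cetuximab, so that cetuximab replicate 1 of SCC1 stood apart from the other 3 libraries.

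GCLM and TXNRD1 were detected broadly. GCLM had a UMI in 86.9% to 92.2% of SCC25 cells, in 42.5% to 46.7% of SCC1 cells, and in 50.8% and 62.7% of SCC6 cells under PBS and 34.2% and 55.3% under cetuximab. TXNRD1 was found in 90.3% and 86.5% of SCC1 cells under PBS and 95.8% and 94.2% under cetuximab. In SCC6 it was found in 79.3% and 67.7% under PBS and 54.8% and 65.7% under cetuximab, and in SCC25 in 47.6% to 55.9% of cells. TXNRD1 was the one gene of the 9 whose share under PBS was highest in SCC1 and lowest in SCC25 with no overlap between lines. Before thinning the shares were 50.2% to 97.7% for GCLM and 69.1% to 99.7% for TXNRD1.

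HMOX1 in SCC6 was also uneven, with few cells holding part of its UMIs. Cells with 10 or more HMOX1 UMIs numbered 20 of 2652 and 6 of 2436 under PBS, with 33.0% and 18.3% of the HMOX1 UMIs, and 0 of 2592 and 3 of 1639 under cetuximab, the latter with 7.67%. The highest count in 1 cell was 42, 35, 7 and 45 in those 4 libraries. The share of SCC6 cells with a HMOX1 UMI was 16.8% and 19.8% under PBS and 15.9% and 32.8% under cetuximab. In replicate 1 the CPM of HMOX1 thus differed between treatments while the share of positive cells was close. In SCC1 no cell reached 10 HMOX1 UMIs in any of the 4 libraries, and in SCC25 0 to 2 cells did. The share was 12.1% to 17.0% in SCC1 and 3.88% to 6.27% in SCC25, and before thinning it was 8.28% to 65.6% over all samples.

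AKR1B10 and SRXN1 were rare in single cells. AKR1B10 had a UMI in 2.14% and 9.45% of SCC1 cells under PBS, 0.943% and 1.68% of SCC6 cells and 3.84% and 11.4% of SCC25 cells. SRXN1 had one in 0.463% to 2.38% of cells over the 12 samples. Both were above the 0.200% of the blood and liver markers in every sample, but no cell held more than 2 SRXN1 UMIs. Before thinning, 0.77% to 26.5% of cells had AKR1B10 and 0.74% to 8.26% SRXN1.

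**Figure D4:**
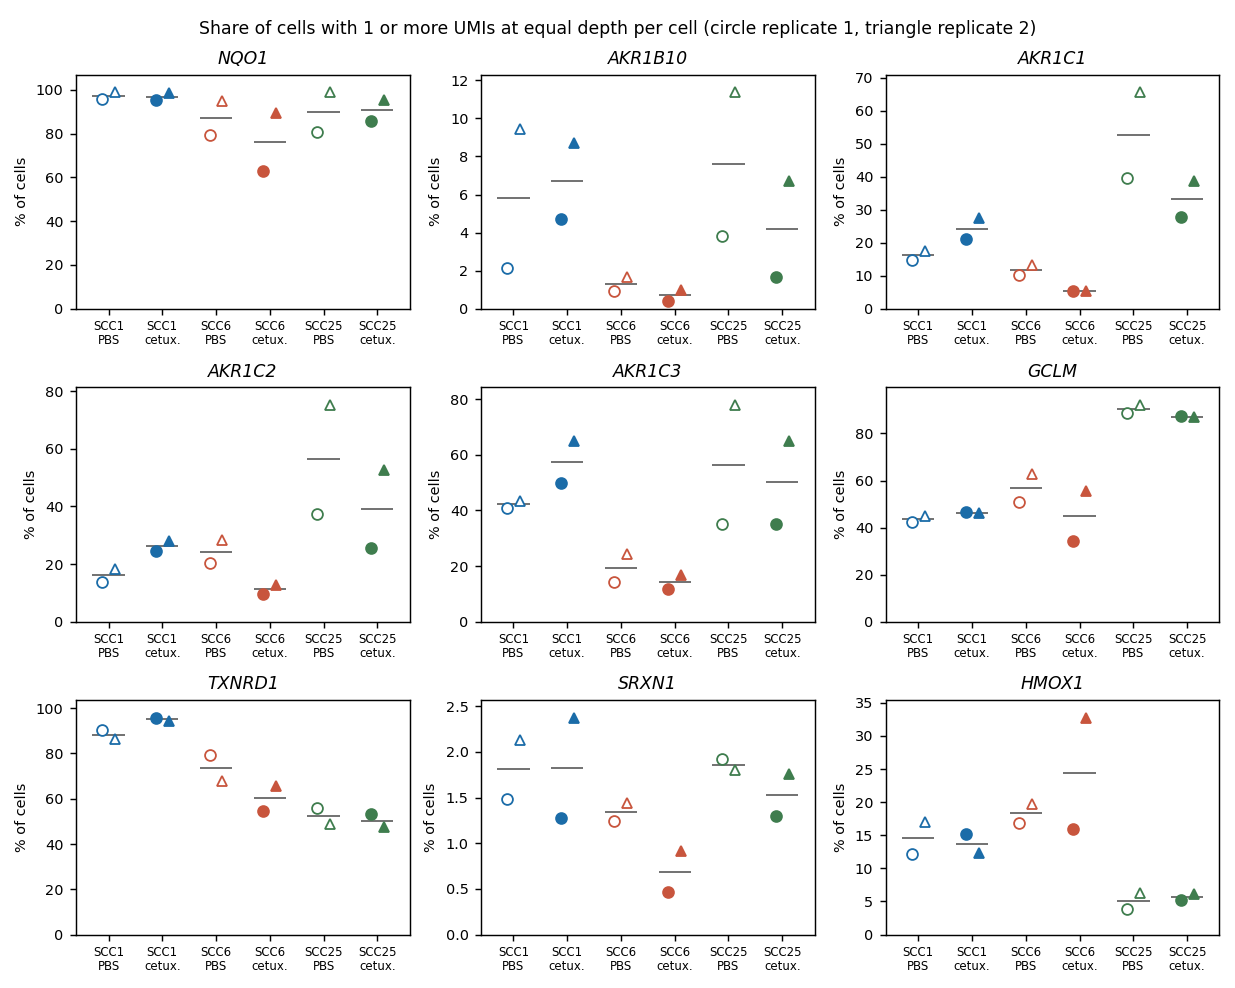
Share of cells (%, axis from 0, a scale of its own for each gene) with 1 or more UMIs of each gene after thinning every cell to 15000 UMIs, in the 12 libraries. Open symbols are PBS, filled symbols cetuximab, circles replicate 1, triangles replicate 2, and lines the mean of 2. AKR1C2 is higher with cetuximab in SCC1 and lower in SCC6, and GCLM is highest in SCC25.

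Where a pair of AKR1C transcripts could be measured, cells of the same library with more of one held more of the other. Spearman correlations were taken across thinned cells, for genes with a mean of at least 0.5 UMI in that library. Within the AKR1C genes they were 0.33 to 0.56 in SCC1 (4 values, all under cetuximab, median 0.45). In SCC25 they were 0.21 to 0.50 (10 values, median 0.31). In untreated SCC1 and in SCC6 no AKR1C pair had both genes at this mean, so none was measured there. NQO1 with the AKR1C genes gave 0.22 to 0.40 in SCC1 (7 values, median 0.26) and 0.09 to 0.25 in SCC25 (11 values, median 0.20). The other pairs of members had medians of 0.18 in SCC1, 0.09 in SCC6 and 0.06 in SCC25. These values describe cells that share a library, were cut to the same depth, and for AKR1C may share reads, and they carry no test.

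Of 41 further genes of the pathway, listed by role with earlier results of these data known, all were tested. NFE2L2 itself, which encodes NRF2, did not differ between untreated lines (0.33 for SCC6 minus SCC1, edgeR adjusted p = 0.456; 0.62 for SCC25 minus SCC1, adjusted p = 0.151; 0.30 for SCC25 minus SCC6, adjusted p = 0.496). KEAP1, its inhibitor, was higher than in SCC1 by 1.5 in SCC6 (edgeR adjusted p = 0.00799) and by 1.03 in SCC25 (edgeR adjusted p = 0.0408). In all, 10 genes were higher and 2 lower in SCC6 than in SCC1, 17 higher and 3 lower in SCC25 than in SCC1, and 11 higher and 5 lower in SCC25 than in SCC6. With the block these were 15 and 7, 23 and 6, and 15 and 7. In sum, 12, 20 and 16 of 41 were called without pairing, beside 40.2%, 40.8% and 40.9% of all genes, and 22, 29 and 22 with the block, beside 53.8%, 54.7% and 54.4%.

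By role and without pairing, the detoxification and export genes were higher in SCC25 than in SCC1 in 8 of 14 cases and lower in 1. Iron and haem genes were higher in 3 of 5, glutathione genes in 2 of 4 with 1 lower, and thioredoxin genes in 1 of 2. NADPH supply genes were higher in 1 of 6, and regulators in 2 of 10 with 1 lower. Over all genes 4192 of 17897 were higher, and 40.8% were called in either direction. The largest differences of SCC25 from SCC1 were in GPX2, a gastrointestinal glutathione peroxidase (9.97), PIR (4.41), the aldehyde dehydrogenase ALDH3A1 (4.14), the haem transporter SLC48A1 (3.18) and the biliverdin reductase BLVRB (2.66), with MAFF, a small MAF partner (-2.87), and the cystine transporter SLC7A11 (-1.62) lower. GPX2, PIR and BLVRB were also higher in SCC6 than in SCC1 (7.59, 2.00 and 1.80), as were MAFK (1.78), the ferritin chain FTH1 (1.22), SLC48A1 (1.22) and RBX1 (1.20), a subunit of the KEAP1 ligase. Between SCC25 and SCC6, CBR3 (2.42) and CBR1 (2.07), both carbonyl reductases, were higher in SCC25 and MAFK was lower (-2.21). GPX2 had only 31 to 44 UMIs in each SCC1 library, so its fold changes rest on few UMIs there.

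With cetuximab, GPX2 fell in SCC6 in both fits (-1.74 ± 0.25, edgeR adjusted p = 0.00851, and 0.000776 with the block), as did MAFF (-2.92 ± 0.60, edgeR adjusted p = 0.029, and 0.0227 with the block). Of the 41, 0 were higher and 3 lower in SCC6 without pairing, and 1 higher and 13 lower with the block, beside 3.81% of all genes without pairing, and 20.1% in either direction and 10.1% lower with the block. Among the latter were GCLC, the catalytic partner of GCLM (-0.70, edgeR adjusted p = 0.0292), the pentose phosphate enzyme TKT (-0.83), PIR (-0.78), IDH1 (-0.65) and the exporter ABCC3 (-0.57), while EPHX1 was higher (0.96). NFE2L2 changed by -0.69 ± 0.22 in SCC6 with the block (edgeR adjusted p = 0.0624) and KEAP1 by -0.16 (edgeR adjusted p = 0.44).

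In SCC1 edgeR called 0 of these 41 genes without pairing, with 3 at an unadjusted p under 0.05 (DESeq2 0, with 2), and with the block GCLC rose (0.80 ± 0.18, edgeR adjusted p = 0.0451). In SCC25 it called 0 without pairing, with 0 at an unadjusted p under 0.05 (DESeq2 0, with 1), and with the block ALDH3A1 fell (-2.01 ± 0.20, edgeR adjusted p = 0.009). Over the lines edgeR called 0 without pairing, with 7 at an unadjusted p under 0.05 (DESeq2 3, with 7), and 2 higher and 7 lower with the block. These were led by ALDH3A1 (-1.64), CBR3 (-0.62), MAFK (0.56), GPX2 (-0.56), TKT (-0.43), EPHX1 (0.34) and FTH1 (-0.21). The interaction was called for 0 of 41 without pairing, with 6 at an unadjusted p under 0.05 (DESeq2 2, with 7), and with the block for GPX2, ALDH3A1 and GCLC (edgeR adjusted p = 0.0252, 0.0312 and 0.0491). With the block these counts stand beside 4.45% of all genes in SCC1, 0.978% in SCC25, 21.2% over the lines and 1.29% in the interaction. Without pairing, edgeR had an unadjusted p under 0.05 for 1570 of 17897 genes in SCC1 and 1041 in SCC25. Over the lines it had 3575, and in the interaction 1318. For DESeq2 these were 1714, 1099, 3867 and 1574. GCLC changed in opposite directions in SCC1 and SCC6, as AKR1C1 to AKR1C3 did by estimate.

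Across the 12 samples, the genes outside the members whose log2(CPM + 1) was most like that of NQO1, among 5330 genes of mean CPM of at least 20, were CCDC47 (Pearson r = 0.977), EXOSC10 (0.975), VPS26A (0.975), NAPRT (0.974) and BLVRA (0.971). For AKR1C1 they were RRNAD1 (0.953), IFI16 (0.950), S100A4 (0.947) and EXOC3 (0.945), and for HMOX1 UCKL1 (0.953), TSEN34 (0.950), C17orf75 (0.949), TRIP10 (0.945) and GSK3A (0.944). The 12 samples share 3 lines and 2 replicate numbers, and these values are a description with no test.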

How the data were processed

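Droplet-based single-cell RNA sequencing (10x 3′ chemistry) covered 12 samples in 6 groups, assigned from the labels. The authors deposited raw UMI counts per gene and cell, 1 table per line, made with Cell Ranger on GRCh38 per the submitters' processing notes and pre-processed with Monocle. Not given in the sources used here are the versions of Cell Ranger and of the annotation, and how reads shared by closely related genes were counted. The deposited cell annotation (category "other" values, cell names) gave each cell's sample, and 0 columns of per-sample values were unused. All 23914 cells entered, and no doublet caller was run. Counts of 24 lines with a repeated symbol were added.

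Counts were summed per sample and tested with edgeR 4.0.16 (R 4.3.3; quasi-likelihood F-test, TMM, filterByExpr, 17897 of 25899 detected genes, 6 group means, 6 residual degrees of freedom, two-sided, Benjamini-Hochberg). Both fits were also run on simulated data, with results that are not given here. Replicate numbers come from the labels. Deviations of same-numbered samples from their group means correlated at 0.65 to 0.72 within each line and at 0.37 to 0.75 between lines. These values cover 7558 genes of mean CPM at least 10 after TMM scaling. All were above 0.1, so the numbers were taken to pair samples. Values between lines overlapped those within a line, so they cannot show a pairing particular to a line. The pairing was judged on the same counts to which the block was then applied. A fit with the number as a block within each line is given where it changes a call. For the untreated comparisons the block was 1 term shared by the lines. Alternatives were DESeq2 1.42.0, its size factors, no low-count filter, own samples only, each library left out, cells left out (the 5% with most UMIs, or over 20% mitochondrial) and summed AKR1C genes. Added after seeing the data were a shared replicate term, the block with summed AKR1C genes, no composition scaling, and each replicate pair left out. Single cells were thinned without replacement to 15000 UMIs, which left out 851 of them (0.847% to 9.18% per sample) and kept 23063.

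The members, the pathway list and the markers were chosen with earlier results of these data known. All members are named. Of the pathway list, the up to 8 called genes with the largest change and a mean CPM of at least 10 are named per comparison, plus NFE2L2 and KEAP1, and the 5 genes most like each of NQO1, AKR1C1 and HMOX1, except items that are not reported here. Promoter sequences and positions are from RefSeq on GRCh38.p14.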

Additional observations from a re-analysis of the deposited data

Results flagged for a closer look

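The change with cetuximab differed between the 3 lines for AKR1C1, AKR1C2 and AKR1C3 when the interaction of line and treatment was tested with the replicate number as a block (edgeR adjusted p = 0.0312, 0.0191 and 0.0227). AKR1C2 changed by 1.37 in SCC1 and by -1.53 in SCC6 on the log2 scale (fitted values), and the direction was the same in both replicates of each line. The 3 genes are closely related copies, and how reads matching more than 1 of them were counted is not known, so they may not be 3 separate cases. AKR1C1-3 summed gave an adjusted p of 0.0116. Without pairing none of the 3 passed, and with 1 replicate term shared by the lines AKR1C1, AKR1C2 and AKR1C3 were at adjusted p = 0.113, 0.141 and 0.252.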

How the results depend on the processing

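The number of the 9 genes called with cetuximab depended on the pairing. Without it, 0 were called in SCC1, SCC6, SCC25, over the lines and in the interaction, and 2, 5 and 6 between untreated SCC6 and SCC1, SCC25 and SCC1, and SCC25 and SCC6. For untreated SCC6 against SCC1, where the replicate block was 1 term shared by the lines, the count was 5 with it. With the replicate block in each line the counts were 2 in SCC1, 5 in SCC6, 2 over the lines and 3 in the interaction. With 1 shared term they were 2 in SCC6 and 1 over the lines, with AKR1C genes summed and the block 1 in SCC1, 4 in SCC6, 1 over the lines and 1 in the interaction, and with the block and no composition scaling 2 in SCC1, 3 in SCC6, 1 in SCC25, 2 over the lines and 3 in the interaction. Leaving out 1 replicate pair with the block gave 0 to 3 in SCC1, 2 to 7 in SCC6, 0 to 1 in SCC25, 0 to 5 over the lines and 1 to 4 in the interaction. Without a filter on low counts, 2 were called in SCC6 (AKR1C1 and AKR1C2), 1 in the interaction (AKR1C2) and 5 for untreated SCC6 against SCC1, and without composition scaling 4 for that comparison. Leaving out 1 library without pairing gave 0 to 0 in the 5 cetuximab comparisons and 0 to 3, 3 to 5 and 3 to 7 in the 3 untreated ones. Of 211 such counts, 156 were within 1.5 times the value in the report. No called change of a gene reversed its sign under any alternative that was run. Over all genes, DESeq2 called 271 genes in SCC1, 1660 in SCC6, 101 in SCC25 and 287 in the interaction, beside 3, 682, 0 and 0 with edgeR, and without the filter 243, 1233, 128 and 248. Fits of own samples only were not made for the comparisons over all lines, which use all samples. The fit without pairing had 2 replicates per group and 6 residual degrees of freedom. There, a change of -1.5 on the log2 scale (AKR1C2 in SCC6) did not pass. The block fit had fewer residual degrees of freedom, as it held a term for each line and replicate number and a change for each line. Its small errors therefore rest on less.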
